A study of Mus musculus with 16 samples.

Results

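Saa3, Lcn2, Chil1, Mdk and Clu encode secreted proteins of the acute-phase and tissue stress response. They were chosen from the intensity table of 8 mouse mammary fibroblast lines for very high levels in the lines HpAF1, AdAF1 and CAF1, or in HpAF1 alone. The choice therefore rests on the levels themselves, and the differences of those 3 lines from the other lines are given as a description, without a test. The 5 genes have 8 probes among 25697 probes on the bead array (5 of 16593 named genes), 4 of them for Mdk and 1 for each of the others. Of the 8 probes, 7 were detected on at least 2 of the 16 arrays and entered the fits over 10453 probes.

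The study compared cultured fibroblasts from normal mammary gland with fibroblasts from hyperplasia, adenoma and carcinoma of the MMTV-PyMT mouse, in which a viral promoter active in mammary epithelium drives the polyoma middle T oncogene. All lines, the normal ones included, have the FVB/N background, carry the E6 gene of human papillomavirus as the immortalizing agent, received no treatment and were grown for 72 h in 10% serum on a soft gel of Matrigel and collagen I. NF2 and NF3 are the normal lines, HpAF1 is the only hyperplasia line, AdAF1 the only adenoma line, and CAF1, CAF2, CAF3 and CAF4 are the carcinoma lines. Each line was measured in 2 cultures with 1 array each. The sources used here do not give the number of mice, their age, or whether lines share a mouse and arrays a chip, and p-values between lines measure only the spread between such cultures. In such bulk samples fewer cells of a kind and less RNA per cell cannot be told apart.

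Acute-phase proteins are secreted in bulk when tissue is injured or infected, mostly by the liver but also by fibroblasts, epithelium and leukocytes at the site itself. Interleukin-1, tumour necrosis factor and Toll-like receptor ligands act on their genes through NF-kappa-B and its partner I-kappa-B-zeta (Nfkbiz), and cytokines of the interleukin-6 family act through STAT factors, with C/EBP proteins binding many of the same promoters. Saa3 is the serum amyloid A made mainly outside the liver in mice, and Lcn2 is a lipocalin that binds the iron carriers of bacteria. Chil1, once called breast regression protein in mice, is a lectin related to chitinases that has lost enzyme activity. Mdk (midkine) is a heparin-binding growth factor, and Clu (clusterin) is a chaperone that works outside cells.

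The promoters of Saa3, Lcn2 and Chil1 are shown because promoters are where the named factors would bind. No promoter sequence of Mdk or Clu was available. Each is the run of 250 bases before the RefSeq start of the gene in build GRCm38.p6, on the gene's own strand. Capitals mark matches to the C/EBP core TTNNGNAA or to the kappa-B consensus, searched on both strands.
Saa3, chr7:46715677-46715926, minus strand: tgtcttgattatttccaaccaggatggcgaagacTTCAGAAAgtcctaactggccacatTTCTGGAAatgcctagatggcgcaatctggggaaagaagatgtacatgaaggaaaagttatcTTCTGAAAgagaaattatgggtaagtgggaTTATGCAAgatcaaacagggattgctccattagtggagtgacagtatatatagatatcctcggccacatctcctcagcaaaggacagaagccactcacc
Lcn2, chr2:32387740-32387989, minus strand: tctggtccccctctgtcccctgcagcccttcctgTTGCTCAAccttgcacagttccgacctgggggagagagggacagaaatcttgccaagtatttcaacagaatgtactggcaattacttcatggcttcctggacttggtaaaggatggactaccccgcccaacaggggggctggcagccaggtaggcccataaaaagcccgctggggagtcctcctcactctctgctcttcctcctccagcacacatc
Chil1, chr1:134181906-134182155, plus strand: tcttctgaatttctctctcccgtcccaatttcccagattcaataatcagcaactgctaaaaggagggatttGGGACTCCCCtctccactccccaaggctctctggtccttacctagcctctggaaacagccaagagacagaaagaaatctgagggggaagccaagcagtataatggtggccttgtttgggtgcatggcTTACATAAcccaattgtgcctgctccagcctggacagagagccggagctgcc

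The Saa3 window holds the C/EBP core at 4 places, at 216, 191, 129 and 99 bases before the start, and the windows of Lcn2 and Chil1 hold it once each, at 216 and 52 bases. Of all 32851 mouse promoter windows of that length, 36.8% hold at least 1 such core. The kappa-B consensus stood only in the Chil1 window, 179 bases before the start, against 7.25% of all windows. The STAT motif TTCNNNGAA (7.02% of all windows) and the AP-1 motif TGANTCA (6.75%) are absent from all 3 windows, and no 2 matches overlap. These matches describe the letters of the windows and are no evidence of binding.

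Saa3 was very high in exactly 3 lines and low or undetected in the other 5. Its values below, like all levels here, are log2 intensities after background correction and quantile normalization, given as culture 1 and culture 2. In the normal lines Saa3 stood at 7.19 and 8.30 in NF2 and at 5.71 and 7.75 in NF3. In the lesion lines with high levels it reached 14.01 and 13.99 in HpAF1, 14.23 and 13.72 in AdAF1, and 13.82 and 14.15 in CAF1. Of the remaining carcinoma lines, CAF2 gave 5.74 and 5.41, CAF3 gave 5.53 and 7.36, and CAF4 gave 5.37 and 8.66. The 6 arrays of HpAF1, AdAF1 and CAF1 thus lay above all 10 others, and the lowest of them exceeded the highest other array by 5.06. Saa3 was not detected (detection p of 0.01 or more) in culture 1 of NF3, CAF3 and CAF4 and in either culture of CAF2.

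Against the mean of the normal lines, Saa3 was higher by 6.77 in HpAF1, 6.74 in AdAF1 and 6.75 in CAF1, which are folds of 109, 107 and 108. With the authors' normalized values the HpAF1 difference was 5.94, and with normexp correction it was 6.18. The cultures of HpAF1, AdAF1 and CAF1 overlapped, so these 3 lines cannot be ranked for Saa3. Their raw intensities of 12253 to 20073 lay well under the brightest probe of any array (63700 or more). Whether the signal of the Saa3 probe itself levels off at such intensities was not tested. Among the low lines the order of the means was NF2, CAF4, NF3, CAF3 and CAF2, and each neighbouring pair overlapped. The other serum amyloid genes on the array, Saa1, Saa2 and Saa4, were detected on 0 of 16 arrays.

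Lcn2 had the same 3 lines at the top, but they differed in level. It stood at 14.71 and 14.62 in HpAF1, at 13.27 in both cultures of CAF1, and at 12.72 and 11.60 in AdAF1. The normal lines gave 7.83 and 9.28 in NF2, and 5.50 and 8.82 in NF3. Among the other carcinoma lines Lcn2 stood at 7.96 and 8.91 (CAF2), 5.48 and 6.87 (CAF3) and 5.13 and 9.61 (CAF4). HpAF1, CAF1 and AdAF1 followed each other without overlap of their cultures, and the lowest of their arrays was 1.99 above the highest of the others. Lcn2 exceeded the normal mean by 6.81 in HpAF1 (112-fold), 5.41 in CAF1 (42.6-fold) and 4.30 in AdAF1 (19.7-fold). The HpAF1 difference was 6.12 with the authors' normalized values, 5.97 without NF3 culture 1 and 7.64 without NF3 culture 2. From NF2 downward (CAF2, CAF4, NF3, CAF3) every neighbouring pair of lines overlapped. Lcn2 was undetected in culture 1 of NF3, CAF3 and CAF4, the same arrays of those lines that lacked Saa3.

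Chil1 was detected in HpAF1, AdAF1, CAF1 and 1 culture of NF2, and on no other array. Its levels were 10.87 and 10.98 in HpAF1, 8.69 and 9.45 in AdAF1, and 8.89 and 9.06 in CAF1. In the normal lines it stood at 6.51 and 6.49 in NF2 and at 5.23 and 5.83 in NF3. CAF2 gave 5.95 and 5.50, CAF3 gave 5.03 and 5.05, and CAF4 gave 5.62 and 5.59, all under the detection limit. HpAF1 was thus above AdAF1 and CAF1, which overlapped each other. The difference from the normal mean was 4.91 in HpAF1, 3.05 in AdAF1 and 2.96 in CAF1. No fold is given, since only 1 of the 4 normal arrays was detected. With the authors' normalized values in place of those used here, the HpAF1 difference of Chil1 was 3.59.

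Mdk showed a graded pattern with detection on every array. Its brightest probe (ILMN_3158499) gave 13.94 and 14.15 in HpAF1, 12.88 and 12.73 in CAF1, and 11.38 and 11.18 in AdAF1. The normal lines came next, with 7.50 and 10.10 in NF2 and 8.60 and 10.16 in NF3. The other carcinoma lines were lowest: CAF2 gave 6.90 and 6.65, CAF3 gave 7.59 and 7.34, and CAF4 gave 7.21 and 6.39. HpAF1, CAF1 and AdAF1 stood in that order without overlap, and AdAF1 lay 1.02 above the highest normal array. NF2 and NF3 overlapped each other, and NF2 overlapped CAF3. Mdk exceeded the normal mean by 4.95 in HpAF1 (31-fold), 3.71 in CAF1 (13.1-fold) and 2.19 in AdAF1 (4.56-fold), while the differences of CAF2, CAF3 and CAF4 from the normal mean were -2.31, -1.63 and -2.29. The HpAF1 difference was 4.30 without NF2 culture 1 and 5.61 without NF2 culture 2.

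The 4 probes of Mdk agreed on the order of the highest lines and differed in detection. The second probe (ILMN_1254450) was detected on 8 arrays and followed the first over the 8 line means with r = 0.996. Its levels were 11.43 and 11.41 in HpAF1, 10.62 and 10.67 in CAF1, and 8.86 and 8.40 in AdAF1, and its 10 other arrays did not exceed 7.72. The third probe (ILMN_3080012) was detected on 2 arrays only and the fourth (ILMN_3079236) on 1, which left the fourth untested. On both of these dim probes HpAF1 and CAF1 still had the highest means, of 7.11 and 5.61 on the third and 6.17 and 5.55 on the fourth. For HpAF1 over the normal mean, the first and second probes gave folds of 31 and 28.7, and the third, undetected in the normal lines, at least 1.58. The fourth was detected in neither HpAF1 nor the normal lines and gives no fold.

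**Figure D1:**
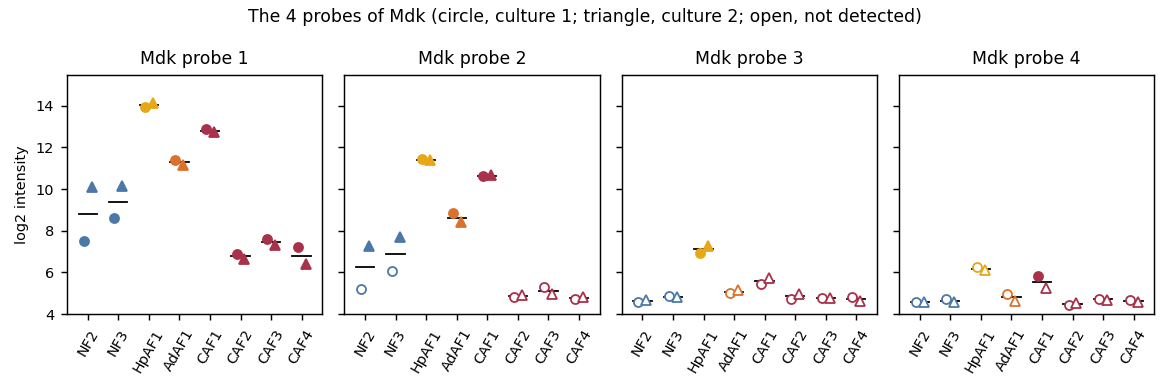
Log2 intensity of each of the 4 Mdk probes in the 8 lines, from the brightest probe on the left to the dimmest on the right. Circles are culture 1, triangles culture 2, open symbols arrays without detection and bars line means; blue is normal, yellow hyperplasia, orange adenoma and red carcinoma. HpAF1 has the highest mean on every probe, and the first probe alone is detected on all 16 arrays.

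Clu differed from the other 4 genes, since AdAF1 and CAF1 did not share its high level in HpAF1. It stood at 12.47 and 12.38 in HpAF1, against 6.67 and 6.53 in AdAF1 and 6.29 and 6.37 in CAF1. The normal lines gave 6.98 and 6.24 in NF2 and 7.23 and 6.45 in NF3. CAF2 was the second line in order, at 9.28 and 7.76, while CAF3 gave 5.56 in both cultures and CAF4 gave 5.93 and 5.56. HpAF1 and CAF2 alone lay above both normal lines on both cultures. The HpAF1 mean was 5.70 above the normal mean (51.9-fold, with 2 of 4 normal arrays detected), and the differences of AdAF1 and CAF1 from the normal mean were -0.12 and -0.40. With the authors' normalized values the HpAF1 difference of Clu was 4.72, and with normexp correction 5.01.

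**Figure D2:**
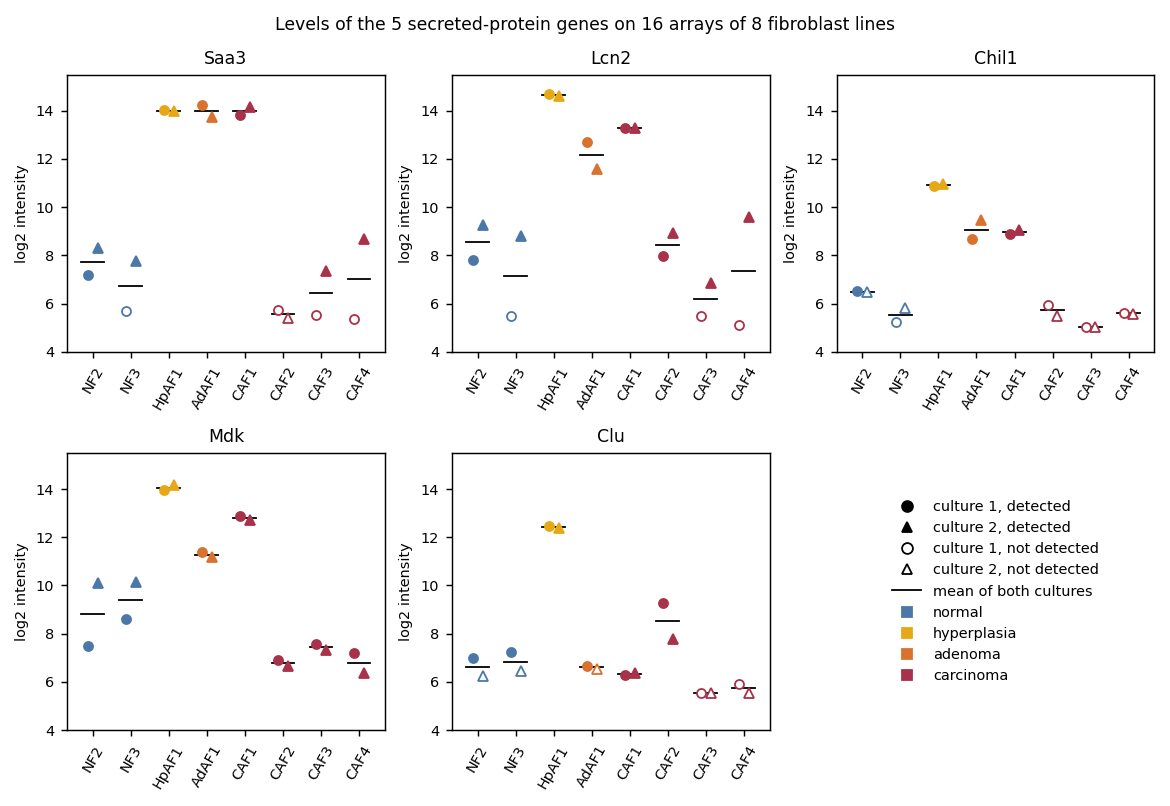
Log2 intensity of the brightest probe of each gene, by line. Circles are culture 1, triangles culture 2, open symbols arrays without detection, and bars the mean of both cultures. Saa3, Lcn2, Chil1 and Mdk have all 6 arrays of HpAF1, AdAF1 and CAF1 above the other 10 arrays, whereas Clu is high in HpAF1 and intermediate in CAF2.

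In 4 of the 5 genes, then, the 6 arrays of HpAF1, AdAF1 and CAF1 did not overlap with the other 10, which the choice of the genes fixed; of all tested probes, 162 (1.55%) showed that separation. Over the 8 line means the correlations among Saa3, Lcn2, Chil1 and Mdk ran from 0.92 (Saa3 and Mdk, Lcn2 and Mdk) to 0.98 (Lcn2 and Chil1). Those of Clu with the other genes were 0.37 with Saa3, 0.61 with Lcn2, 0.64 with Chil1 and 0.54 with Mdk. These coefficients share the same 8 lines and arrays, largely restate the choice of the genes and carry no test.

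The stage of the lesion did not order these genes, because the carcinoma lines were split. Averaged over lines, carcinoma minus normal was 1.02 (SE 2.22) for Saa3, 0.96 (SE 1.81) for Lcn2, 0.32 (SE 1.05) for Chil1, -0.63 (SE 1.67) for Mdk and -0.19 (SE 0.792) for Clu, over 4 carcinoma and 2 normal lines. For all 5 genes the SE exceeded the difference. CAF1 stood with HpAF1 and AdAF1 for Saa3, Lcn2, Chil1 and Mdk, and the means of CAF2, CAF3 and CAF4 lay near or below those of the normal lines. Hyperplasia and adenoma have 1 line each, so line and stage cannot be told apart there.

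Among lines that the choice of the genes did not use, Clu was the only member with a difference past the threshold. Clu in CAF3 minus CAF2 was -2.96 (SE 0.42, adjusted p = 0.00141, limma with Benjamini-Hochberg adjustment over all probes), at least 6.47-fold lower because neither CAF3 culture was detected. In CAF4 minus CAF2 it was -2.78 (SE 0.42, adjusted p = 0.00321, limma), at least 4.67-fold lower for the same reason. Of all probes, 8% passed between CAF3 and CAF2 and 3.2% between CAF4 and CAF2. Clu in CAF2 fell by 1.52 from culture 1 to culture 2, and both differences passed without either culture.

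The same fits gave no call for the other members. Between CAF3 and CAF2 the log2 differences were 0.87 (SE 0.939) for Saa3, -2.26 (SE 1.27) for Lcn2, -0.68 (SE 0.267) for Chil1 and 0.69 (SE 0.674) for Mdk. No member differed between CAF4 and CAF3, where 3.02% of probes passed, or between NF3 and NF2, where 0.143% passed. Chil1 came nearest between the normal lines, with a difference of -0.97, NF3 minus NF2 (SE 0.267, adjusted p = 0.309, limma). With SEs of 0.939 and 1.27, the fit could not resolve differences of 1 log2 unit in Saa3 or Lcn2.

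The lines CAF2, CAF3 and CAF4 were also set against both normal lines, a comparison added after the levels had been seen. Clu in CAF2 was higher than in NF2 by 1.92 (adjusted p = 0.0297, limma) and than in NF3 by 1.68 (adjusted p = 0.0473, limma), both with SE 0.42. It passed against both in 3 of 16 fits without 1 array, and without CAF2 culture 1 the differences were 1.16 and 0.92 (adjusted p = 0.183 and 0.254, limma). No other member passed against both normal lines. Mdk in CAF2 differed from NF3 by -2.60 (SE 0.674, adjusted p = 0.0548, limma) and from NF2 by -2.02 (adjusted p = 0.134, limma). Chil1 in CAF3 differed from NF2 by -1.46 (adjusted p = 0.0152, limma) and from NF3 by -0.49 (adjusted p = 0.345, limma), with neither CAF3 culture detected. Of 1 probe per gene, 1.15% were higher and 0.899% lower in CAF2 than in both normal lines.

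Saa3 and Lcn2 varied strongly between the cultures of some lines. Culture 2 of CAF4 exceeded culture 1 by 4.48 for Lcn2 and by 3.30 for Saa3, while the median gap of all tested probes in that line was 0.32. No tested probe had a larger gap in CAF4 than Lcn2, and 0.0574% had a larger one than Saa3. In NF3 the gaps were 3.33 for Lcn2 and 2.04 for Saa3, in NF2 they were 1.46 and 1.11, and in CAF3 they were 1.39 and 1.83. In HpAF1 and CAF1 no gap of either gene exceeded 0.34. AdAF1 ran the other way, with gaps of -1.12 for Lcn2 (1.26% of probes larger) and -0.51 for Saa3, and CAF2, where Saa3 was lowest, gave -0.33 for Saa3 and 0.95 for Lcn2. Culture 1 and culture 2 had 7693 and 9204 detected probes in CAF4 and 9823 and 9236 in CAF3. The numbers were 7602 and 7445 in NF3 and 9600 and 7929 in NF2, and the part of this in the gaps was not tested.

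The labels do not say that a culture number marks anything shared between lines, and a mean difference over lines has a meaning only if it does. Over all 8 lines culture 2 was higher by a mean of 0.97 (SE 0.387) for Saa3 and 1.30 (SE 0.528) for Lcn2, with 5 and 6 of 8 lines in that direction. Neither passed (adjusted p = 0.248 and 0.253, limma over all probes; exact two-sided sign-flip permutation p = 0.102 and 0.0859). The culture difference of Clu was -0.44 (SE 0.17, adjusted p = 0.232, limma; exact sign-flip p = 0.0312), with 1 of 8 lines higher, and the mean gaps of Chil1 and Mdk were 0.15 and 0.34. Mdk was higher in culture 2 of both normal lines, by 2.61 in NF2 and 1.56 in NF3. Of all probes 0 passed after adjustment, 0% of those tested, and 1791 had an unadjusted p under 0.05. The smallest p that 8 lines allow in the sign-flip test is 0.00781.

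**Figure D3:**
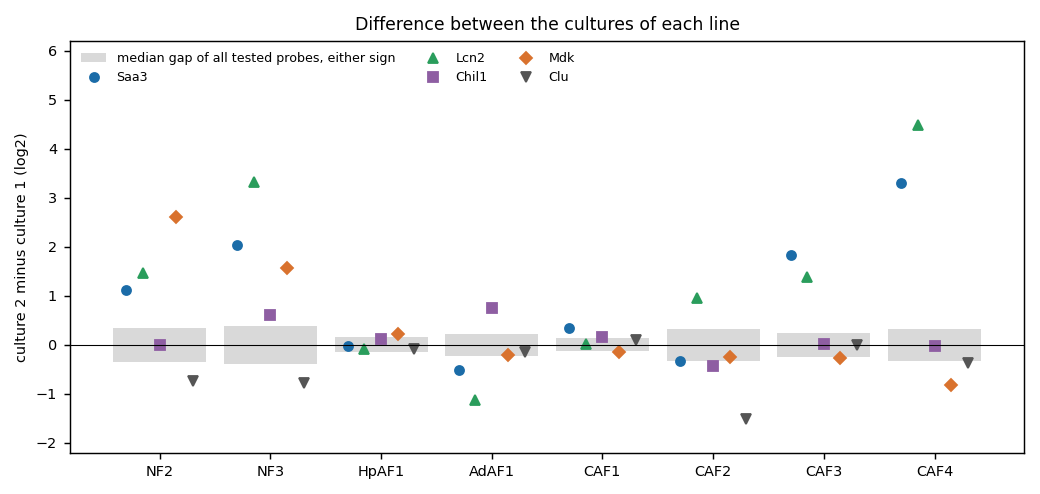
Culture 2 minus culture 1 (log2 intensity) of the 5 genes in each line, with the median gap of all tested probes as a grey band of either sign. Saa3 and Lcn2 lie far above the band in CAF4, NF3, NF2 and CAF3 and near 0 in HpAF1 and CAF1, and Clu lies lowest in CAF2.

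The genes around the 5 members were described from lists of other acute-phase proteins, inducers, regulators, receptors, family relatives and stress proteins. Of 119 listed genes, 101 were on the array and 56 were tested. A gene was called when a line differed from NF2 and from NF3 in the same direction (each adjusted p under 0.05, limma). In HpAF1, 8 genes rose and 2 fell, against 4.35% and 3.61% of all tested genes. In AdAF1, 6 rose and 0 fell (1.13% and 0.295% of all genes), and in CAF1 8 rose and 0 fell (1.8% and 0.657%). In CAF2, 0 rose and 5 fell (1.15% and 0.899%), and no listed gene was called in CAF3 (0.792% of all genes higher, 0.711% lower) or CAF4 (0.416% and 0.282%). These 6 comparisons share the control arrays of NF2 and NF3. Il6 and Trem2 were detected only in CAF1, Lif and Tnfaip3 only in AdAF1 and CAF1, and Orm1 only in HpAF1 and 1 CAF2 culture. Those genes entered the tests through the lines that detected them, so the filter partly fixed their calls there. With detection required on at least 4 arrays, the listed genes called were 8 in HpAF1, 5 in AdAF1 and 5 in CAF1. The counts of 10 in HpAF1, 6 in AdAF1 and 8 in CAF1 became 4 without either HpAF1 culture, 3 and 1 without AdAF1 culture 1 and 2, and 5 and 3 without CAF1 culture 1 and 2, and the CAF1 count was also 5 without either NF2 culture. The 5 calls in CAF2 became 3 without NF2 culture 1 and 0 without CAF2 culture 1.

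Regulators of NF-kappa-B signalling were 5 of the 8 higher genes in HpAF1, 4 of 6 in AdAF1 and 4 of 8 in CAF1. The 11 tested regulators also include C/EBP and STAT factors, and their list was made with earlier results of these data known. Of these 11, 5 rose and 1 fell in HpAF1, 4 rose in AdAF1 and 4 rose in CAF1. Their median difference from normal was 0.94, 0.65 and 0.39, with -0.02, -0.03 and -0.01 for all tested genes. Rela, Cebpb, Stat3, Socs3 and Bcl3 were called in none of these lines. Nfkbiz, the nuclear partner of NF-kappa-B needed for Lcn2 induction, stood at 9.60 and 9.10 in NF2 and at 8.77 and 8.73 in NF3. HpAF1 gave 10.97 and 11.13, AdAF1 gave 10.72 and 11.06, and CAF1 gave 11.14 and 11.16. Its levels in the other carcinoma lines lay between 7.45 and 8.10. All 6 arrays of the 3 high lines were above the rest, and Nfkbiz rose by 2.00, 1.84 and 2.10 (adjusted p at most 0.00709, limma) with a call of -1.42 in CAF2 that ended without CAF2 culture 1.

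Relb, a subunit of the non-canonical pathway, rose by 1.39 in HpAF1, 1.34 in AdAF1 and 0.91 in CAF1. Tnfaip3 (A20), a feedback inhibitor, was undetected in all normal cultures and rose in CAF1 to 7.53 and 7.43 (at least 2.04-fold). In AdAF1 it rose to 7.20 and 6.17 (at least 1.18-fold), with detection in only 1 of these cultures. In HpAF1 Tnfaip3 passed the test at 5.59 and 5.67 but was detected in neither culture, so no fold is given. Nfkbia, which holds NF-kappa-B in the cytoplasm, rose by 1.23 in HpAF1 and 1.62 in AdAF1, and its difference of 1.10 in CAF1 did not pass (adjusted p = 0.128, limma). Zc3h12a, an RNase that degrades inflammatory messages, rose by 1.14 in HpAF1 and 1.56 in CAF1.

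Cebpa, a C/EBP factor, was called lower in HpAF1, at 4.68 and 4.85 without detection, with 2 of 4 normal arrays detected and no fold to give. Cebpa was undetected in AdAF1 and CAF1 as well. Its differences there, -1.52 and -1.47, were close to that of -1.65 in HpAF1 but did not pass (larger adjusted p = 0.0706 and 0.0673, limma). Of these calls, those of Tnfaip3 and Nfkbia in HpAF1, Nfkbia in AdAF1 and Relb in CAF1 were lost in 18, 9, 11 and 11 of their alternatives, most of them fits without 1 array, with adjusted p up to 0.21, 0.22, 0.245 and 0.25. Those of Nfkbiz and Relb in HpAF1, Tnfaip3 in AdAF1, and Nfkbiz and Tnfaip3 in CAF1 passed in every alternative run. Without single arrays of the line itself or of a normal line, Nfkbiz in AdAF1 (adjusted p up to 0.0885, without AdAF1 culture 2), Relb in AdAF1 (0.0629, without either AdAF1 culture), Cebpa in HpAF1 (0.103, without NF2 culture 1 or either HpAF1 culture) and Zc3h12a in HpAF1 (0.15, without the same arrays or NF3 culture 2) and in CAF1 (0.169, without NF2 culture 1 or CAF1 culture 2) no longer passed.

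Of 17 genes of the inducer list on the array, 10 were tested. Il1b, Tnf and Osm were detected on 0 of 16 arrays and Il1a on 1. Il11, Tnfrsf1a, Il17rc, Osmr and Myd88 were detected on all 16, and none of them was called in any line. Il6 was detected in CAF1 alone, at 6.56 and 7.02, at least 1.27-fold above the normal lines (difference 1.66, adjusted p = 0.00324, limma), a call that ended without CAF1 culture 2 (adjusted p = 0.0691). Lif, a cytokine of the interleukin-6 family, was detected in AdAF1 (6.61 and 6.80) and CAF1 (6.89 and 6.78) and in no other line, at least 1.19-fold and 1.31-fold above normal, the first lost without AdAF1 culture 2 (adjusted p = 0.0578, limma). Both Il6 and Lif passed the detection filter only through the lines in which they were called. In HpAF1, 0 of 10 tested inducers rose, a count that the 4.35% of all genes would also give. The receptor gene Il1rap of this list was called lower in CAF2, with a difference of -2.15 and detection in neither culture. That call ended without CAF2 culture 1.

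Other acute-phase proteins followed the members in HpAF1 only in part. Of 10 tested, 2 rose in HpAF1 and none was called in AdAF1 or CAF1, with medians of 1.01, -0.10 and -0.60. Of all tested genes, 4.35%, 1.13% and 1.8% rose in these lines, shares that would also give no call among 10 genes in AdAF1 or CAF1. Cd14, the co-receptor for bacterial lipopolysaccharide, stood at 8.52 and 8.64 in HpAF1, above its 7.48 to 7.91 in AdAF1 and CAF1 and at most 6.94 in the normal lines. Cd14 rose by 1.91 in HpAF1 (adjusted p = 0.000879, limma). Orm1, an alpha-1-acid glycoprotein, was detected on both arrays of HpAF1 at 7.20 and 6.87, at least 1.51-fold above normal, but the call (adjusted p = 0.0408, limma) was lost in 14 of 23 alternatives. Hp, Mt2 and Ptx3 ran the other way in HpAF1, with differences of -2.83, -1.18 and -0.45 and no call, and Hp and Mt2 were undetected there. Orm2, Serpina3n, Cp, Mt1 and Lbp lay above the normal mean in HpAF1, also without a call. In CAF2, Serpina3n fell by 3.54 and Ptx3 fell by 3.21, calls that both ended without CAF2 culture 1.

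Of the described receptors and binding partners, 13 were tested. Tlr2, a receptor reported for serum amyloid A, stood at 9.50 and 9.90 in HpAF1, 9.31 and 9.22 in AdAF1, and 9.57 and 9.65 in CAF1, against 6.78 to 7.91 in the normal lines. Tlr2 rose by 2.39, 1.95 and 2.30 in those lines with a call of -1.78 in CAF2. The AdAF1 call of Tlr2 was lost in 7 of 24 alternatives (adjusted p up to 0.168) and the CAF1 call without NF2 culture 2 or either CAF1 culture (adjusted p up to 0.093), and the CAF2 call ended without CAF2 culture 1. Sdc3, a heparan sulfate proteoglycan that binds midkine, fell by 1.49 in HpAF1 (lost without NF2 culture 2 or either HpAF1 culture, adjusted p up to 0.144). Trem2, a receptor for clusterin, was called higher in CAF1 at 6.15 and 6.39 with a bound too low for a fold (lost in 6 of 23 alternatives).

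Of the relatives of the members, 3 were tested and none was called, too few to set against 1.13% to 4.35% of all genes that rose in the 3 lines. Ptn (pleiotrophin), the only other member of the midkine family, stood at 13.76 and 13.41 in HpAF1 and 8.56 and 7.87 in AdAF1, against 10.39 to 14.32 in the normal lines. Its AdAF1 mean differed from the normal mean by -4.21 (adjusted p = 0.0784, limma). Apod, a lipocalin like Lcn2, was undetected in HpAF1, where Lcn2 was highest, and stood between 9.41 and 11.06 in CAF2, CAF3 and CAF4, where Lcn2 was low. In AdAF1 and CAF1, where Lcn2 was also high, Apod stood between 7.57 and 8.02, inside its range of 6.85 to 10.68 in the normal lines. The HpAF1 difference of Apod, -2.58, did not pass (larger adjusted p = 0.199, limma). Chil3 and Chil4, relatives of Chil1, were detected on 0 arrays. None of 9 other stress proteins was called, among them Timp1, Lgals3 and Mif. The 1.13% to 4.35% of all genes that rose in the 3 lines would also give that count. In the fit of 4 carcinoma against 2 normal lines, 0 of the 56 listed genes and 0% of all probes passed, with 1 listed gene at an unadjusted p under 0.05.

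**Figure D4:**
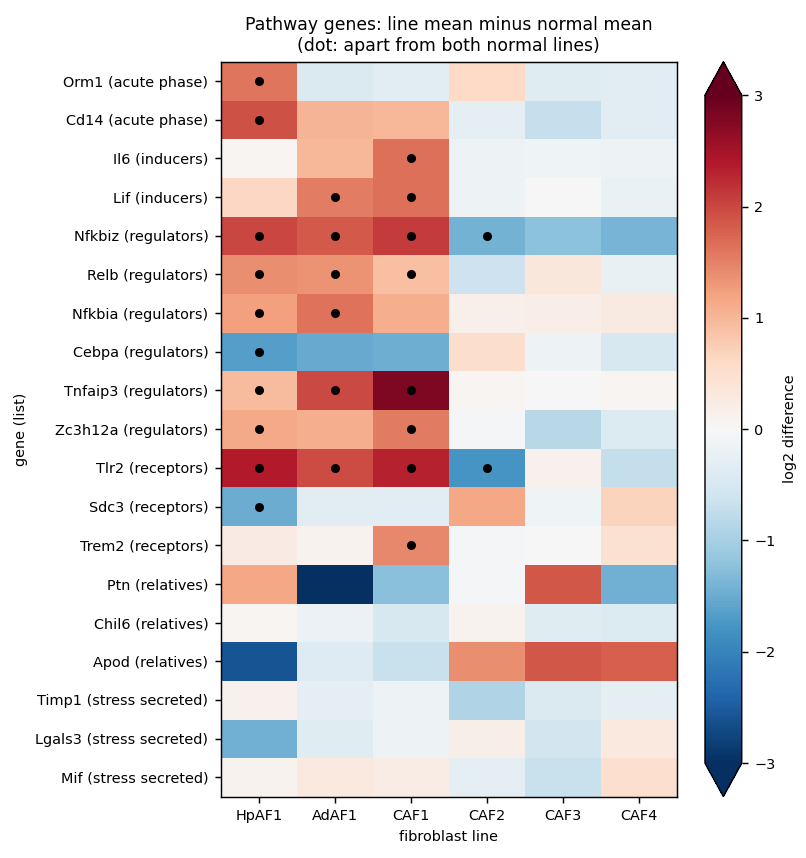
Mean of each lesion line minus the mean of the normal lines (log2) for the named genes of the 6 lists, with a dot where a line was called apart from both normal lines. Nfkbiz, Relb and Tlr2 are red with dots in HpAF1, AdAF1 and CAF1, Nfkbiz and Tlr2 are blue with dots in CAF2, and no dot stands in CAF3 or CAF4. The colour scale ends at 3 in either direction.

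Other genes ran closely with the members over the 8 line means. They were ranked by Pearson's r among 802 genes whose line means span at least 2 log2 units. Closest to Saa3 were Ier3 (r = 0.988), Bnc1 (0.979), Lrig1 (0.973), Acsl6 (0.972) and the chemokine Cxcl1 (0.971). Closest to Lcn2 were Mreg (0.983), Angptl4 (0.982), Nqo1 (0.978), Bnc1 (0.975) and Cd14 (0.975). Bnc1 and Cd14 thus recur, and they also head the genes closest to Chil1 (0.985 and 0.993), followed by Mreg (0.979), Ch25h (0.976) and Gch1 (0.974). For Mdk they were Ch25h (0.978), Mmd (0.966), Atp6v0e2 (0.964), Nfkbiz (0.957) and Mreg (0.948). Clu had a separate set, Orm1 (0.968), Gprc5a (0.965), Klra4 (0.934), Cxadr (0.924) and Upk3b (0.922), all highest in HpAF1. With 8 points that share their arrays, and 3 lines far from the rest, these coefficients are descriptions.

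Markers were read beside these levels. All 11 fibroblast markers were detected in every line, except Lum in CAF2, and of 10 leukocyte and 11 epithelial markers on the array 9 and 10 were never detected, Ptprc, Itgam, Krt8 and Cdh1 among them. Of the endothelial and adipocyte markers, 5 of 7 and 4 of 5 were never detected. Tek was detected in every line, Esam on 1 CAF3 array, and Adipoq in both CAF2 cultures and 1 NF3 culture. Lyz2 was detected in CAF1 and CAF3, and Krt19 on 1 CAF1 array. The array mean of the mesothelial list was 7.01 to 7.02 in HpAF1 and 5.06 to 6.01 in the other lines. Of its 7 markers, 4 were detected in both HpAF1 cultures, and of these only Upk3b was detected in no other line. Upk1b was detected in both cultures of every line, with means of 7.32 in HpAF1 and 7.59 in NF3. Wt1 stood at 7.94 in HpAF1 and was also detected in both cultures of CAF3, at a mean of 6.16. Upk3b stood at 9.25 in HpAF1 and at most 5.06 elsewhere, Bnc1 at 9.83, 8.84 and 8.67 in HpAF1, AdAF1 and CAF1, and Msln, Lrrn4 and Gpm6a were detected on no array. The part of these markers in the levels of Clu and the other members in HpAF1 was not tested. Between 7445 and 9823 probes were detected per array.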

How the data were processed

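The 16 arrays were grouped by line and stage from the labels. Per the file headers, the authors deposited the intensity of each probe on a linear scale without normalization, with its detection p-value. A second deposited table holds an intensity that the authors had normalized, and it served as an alternative. The sources used here do not name the software behind either. Intensities were corrected, quantile normalized and put on the log2 scale with neqc (limma 3.58.1, R 4.3.3, offset 16), which compresses dim probes.

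Probes with detection p under 0.01 on at least 2 arrays were tested (10453 of 25697, 40.7%; 7454 genes, each by its probe of highest mean). Probes were named from the platform annotation, updated to RefSeq by Entrez number for 23962 of 23978 (0 with several symbols, 1719 with none); Chil1 is listed there under its older symbol. Lines were compared in a model with a mean for each line, in which cultures are the replicates, stages on line means and cultures on 8 within-line differences, by limma with Benjamini-Hochberg adjustment over all probes, two-sided at 0.05. A "fold of at least" sets the detected group against the higher of the dimmest detected signal and the probe itself.

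The members and lists were chosen with earlier results of these data known. Listed genes are named when called in HpAF1, AdAF1 or CAF1, up to 6 per list, and the 3 brightest where none was. The genes that fell in CAF2 and those never detected were named after their values were seen. So were the inducers, regulators and acute-phase genes named without a call. Fits were tested on simulated data. The alternatives were other background corrections, offsets, filters, probe rules, a looser threshold, a block for the culture number, a random block for the line, and each array or line left out. The culture numbers were not used as pairs, because the labels do not say that a number marks a shared batch and 12 of 28 pairs of lines, not all, had a correlation of culture differences over 0.1 (-0.20 to 0.65). A culture effect shared by some lines is not excluded by this. The number of arrays limits the precision.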

Additional observations from a re-analysis of the deposited data

Results flagged for a closer look

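Among the 4 carcinoma line means, 6 of the 19 named genes of the lists had 1 line standing apart. The gap to its nearest neighbour, as a share of the range, was above Dixon's critical value at the 95% level. Many of the 19 were named for a call in HpAF1, AdAF1 or CAF1, so a CAF1 mean apart from the others was partly fixed beforehand. Chance alone would flag about 5% of groups picked without regard to their values, which these were not. The lists were also made with earlier results of these data known. Nfkbiz stood at 11.15, with the next line at 7.83 (0.945 of the range), Nfkbia at 9.80 against 8.98 (0.873), Tnfaip3 at 7.48 against 4.77 (0.978), Il6 at 6.79 against 5.00 (0.989) and Lif at 6.83 against 5.17 (0.901), each highest in CAF1. Orm1 was the exception, highest in CAF2 at 6.02 against 5.12 (0.951), where it was detected on 1 of the cultures. Saa3, Lcn2, Chil1, Mdk and Clu were not examined, since they were chosen for their levels in CAF1 and the other high lines.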

How the results depend on the processing

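No result reversed under any alternative. The 2 differences of Clu between carcinoma lines passed in 23 of 23 alternatives, 2 in every fit without 1 array (largest adjusted p 0.015 and 0.0319, limma). With an adjusted p under 0.10, listed genes called numbered 10 in AdAF1, 8 in CAF2, 1 in CAF3 and 1 in CAF4; with detection on at least 4 arrays, CAF1 had 5. With the culture number as a replicate block the counts for HpAF1, AdAF1, CAF1, CAF2, CAF3 and CAF4 were 11, 8, 9, 5, 0 and 1, and none of the 24 named calls was lost. Leaving out 1 array ended between 1 (either CAF2 culture) and 10 (CAF1 culture 2) of these 24 calls. Leaving out 1 array gave 4 to 11 for HpAF1, 1 to 7 for AdAF1, 3 to 9 for CAF1, 0 to 6 for CAF2, 0 to 1 for CAF3 and 0 to 1 for CAF4; CAF2 had 0 without its culture 1 and 3 without NF2 culture 1, CAF3 had 1 without either NF2 culture, and CAF4 had 1 without either culture of NF2 or of CAF3. The HpAF1 difference of Chil1 was 3.94 with normexp, 3.59 with the authors' deposited values and 4.30 with an offset of 50; that of Clu was 5.01 with normexp and 4.72 with the authors' values; that of Mdk was 4.06 with its probes averaged. Without 1 array these differences ran from 6.25 to 7.28 for Saa3, 5.97 to 7.64 for Lcn2, 4.76 to 5.06 for Chil1, 4.30 to 5.61 for Mdk and 5.50 to 5.89 for Clu. The carcinoma comparison called 0 to 0 listed genes, and the culture comparison 0 to 0 members, without 1 line; over all probes the carcinoma comparison called 1 without CAF1 and 1 with the line as a random block. Adjusted over the 5 genes, the sign-flip p of Clu was 0.156. Dim probes near background (Chil1 outside the 3 high lines, the dimmer Mdk probes) have compressed differences.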
